A study of Macaca fascicularis with 16 samples.

Results

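The comparison set the 2 ends of the aorta against each other, the infrarenal segment below the renal arteries and the ascending segment that leaves the heart. All 4 infrarenal and all 4 ascending libraries were taken by their region labels, 8 of the 16 libraries of the series, and the comparison ran over 15926 expressed genes. The tissue was aorta of normal young cynomolgus monkeys (Macaca fascicularis) labelled baseline in both groups, and total RNA was sequenced. The other 8 libraries came from the descending and suprarenal aorta between these ends. In units of 1e6, between 15.55 and 16.51 counts were assigned per ascending library and between 14.40 and 17.63 per infrarenal library. Whether replicates are different animals is not in the labels, and a p-value here therefore speaks only of the spread among libraries, which may be technical. They give no batch.

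The aortic wall is built of smooth muscle cells between sheets of elastin, with endothelium on the inside and a collagen-rich adventitia with fat outside. Smooth muscle of the ascending aorta descends from the second heart field and the neural crest, whereas that of the abdominal aorta descends from paraxial and lateral mesoderm. HOX genes record position along the body axis, NOTCH3 is a receptor of mural cells, and elastin, collagen, ion channels and receptors set how the wall stretches and contracts.

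Of the 15926 genes, 556 differed between the ends at a Benjamini-Hochberg adjusted p under 0.05 in the quasi-likelihood test of edgeR (3.49%). Infrarenal aorta was higher in 228 (1.43% of all genes) and lower in 328 (2.06%). The change was at least 1 on the log2 scale in 193 of the higher and 279 of the lower genes, and at least 4 in 36 and 35. In 519 of the 556 the 4 infrarenal libraries lay wholly above or below the 4 ascending ones, which held for 7.19% of all genes tested (2.97% above and 4.22% below). All differences are infrarenal minus ascending on the log2 scale, and the median over all genes was 0.05. In simulated counts with known changes, 24 of 100 differences of 2-fold and 75 of 100 of 4-fold were recovered, so a gene that did not pass is not shown to be equal. The count without 1 library was 345 without infrarenal replicate 2, 348 without ascending replicate 1, 359 without ascending replicate 2 and 1001 without infrarenal replicate 1, and 272 genes passed in all 16 such fits.

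**Figure D1:**
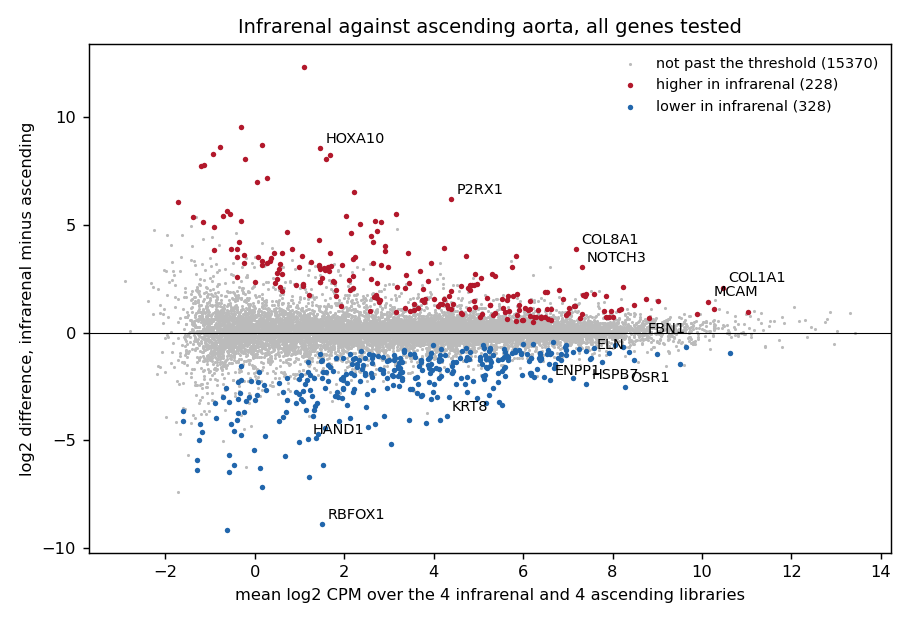
Log2 difference between infrarenal and ascending aorta against the mean level in the 8 libraries (log2 CPM, counts scaled to a library size of 1e6), 1 point per gene. Red points are the 228 genes higher and blue points the 328 genes lower in infrarenal aorta at an adjusted p under 0.05; the farthest red points include genes with 0 counts in ascending aorta, whose fitted difference is no measured fold.

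The 8 libraries differed within their groups. Infrarenal replicate 1 had a TMM scaling factor of 0.736 against 0.977 to 1.08 in the other 15 libraries, 12.6% of its counts in its 10 largest genes against 5.89% to 8.19%, and a mean ribosomal protein level of 9.82 log2 CPM against 8.09 to 8.73. Ascending replicate 4 was the ascending library closest to infrarenal aorta in 259 of the 556 genes (46.6%), against 84 to 114 for each other ascending library. Smooth muscle markers were high in every library, and their summed level overlapped between ascending (17304 to 35462 CPM) and infrarenal aorta (21214 to 56322 CPM), with 0 of 7 passing in edgeR (1 at an unadjusted p under 0.05, 0 with DESeq2, 0 with voom and 0 with voom and quality weights). Without infrarenal replicate 1 and ascending replicate 4 together, 572 genes were higher (3.56% of 16070 tested) and 616 lower (3.83%), 7.39% in all, among them 510 of the 556.

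HOX genes had more calls than any other list. Values of single genes are CPM, counts scaled to a TMM library size of 1e6, in the order of replicates 1 to 4. Of 28 HOX genes tested, 19 were higher and 1 lower in infrarenal aorta. All 15 tested members of paralog groups 6 and above were higher, and 24 such genes were listed. Of the 15, 12 lay under the level of the low-count filter in at least 1 ascending library, and 8 held fewer than 10 counts over all 4. Those 12 were tested only because other libraries were high, so the filter sets much of this count. HOXA10, a posterior patterning factor, was at 0.0627, 0.185, 0.0605 and 0.0604 CPM in ascending aorta and 40.03, 42.3, 42.5 and 24.8 CPM in infrarenal aorta. The groups did not overlap, and the ascending values were close to 0 in every library (log2 difference 8.55, SE 0.65, edgeR adjusted p = 6.23e-06). HOXA9 was at 0.0627, 0.0617, 0.0605 and 0.362 CPM in ascending aorta and 51.3, 47.5, 44.5 and 34.5 CPM in infrarenal aorta, again with no overlap (log2 difference 8.26, SE 0.74, edgeR adjusted p = 3.07e-05).

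HOXB7 was at 1.13, 0.617, 0.605 and 1.27 CPM in ascending aorta and 38.6, 16.6, 20.7 and 12.3 CPM in infrarenal aorta (log2 difference 4.60, SE 0.42, edgeR adjusted p = 3.07e-05), and infrarenal replicate 1 was the highest of its group. HOXC6 was at 1.75, 0.309, 0.121 and 0.543 CPM in ascending aorta and 18, 37.4, 35.4 and 25.9 CPM in infrarenal aorta, without overlap (log2 difference 5.41, SE 0.63, edgeR adjusted p = 0.000213). HOXD9 was at 0.627, 0.185, 0.908 and 2.11 CPM in ascending aorta and 34.3, 35.3, 39.3 and 16.9 CPM in infrarenal aorta (log2 difference 5.02, SE 0.84, edgeR adjusted p = 0.00298). All 4 clusters therefore held posterior genes that were higher at the infrarenal end. HOXB8 had 0 counts over the ascending libraries and 102 over the infrarenal ones, at least 35.5-fold higher against a floor of 3 counts over the group. HOXC8 had 3 counts against 424, a ratio of 148 (95% interval of counting error only 50.1 to 718). HOXC9 had 1 count against 576, a ratio of 601 (95% interval of counting error only 107 to 23800).

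Paralog groups 1 to 5 were mixed, with a median of 0.70 over 13 tested genes. HOXB5, HOXC4, HOXD3 and HOXD4 were higher (3.05, 4.03, 3.17 and 3.68), and 8 did not pass. HOXD3 did not pass without ascending replicates 2 or 3 or infrarenal replicates 2 or 3 (highest adjusted p 0.115). HOXA4 went the other way, at 19.1, 14.4, 11.9 and 6.76 CPM in ascending aorta and 2.24, 2.41, 4.52 and 3.28 CPM in infrarenal aorta (log2 difference -2.06, SE 0.31, edgeR adjusted p = 0.00141). Its groups did not overlap. The counting strand is not given in the sources used here, so reads of overlapping or antisense HOX transcripts cannot be told apart. Of 8 tested cofactors of HOX proteins, 0 passed in edgeR (2 at an unadjusted p under 0.05, 1 with DESeq2, 0 with voom and 2 with voom and quality weights), and MEIS2 was at -0.67 (SE 0.21, adjusted p = 0.107).

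**Figure D2:**
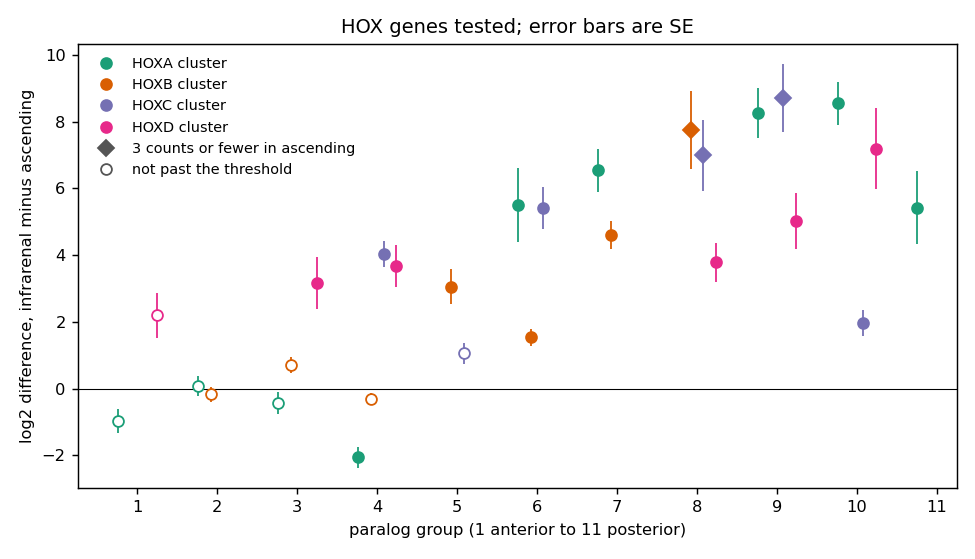
Log2 difference, infrarenal minus ascending, with SE for the 28 HOX genes tested, placed by paralog group and coloured by cluster. Filled symbols passed the test, and diamonds mark genes with 3 counts or fewer in ascending aorta; all 15 genes of groups 6 and above lie above 0, while groups 1 to 5 lie on both sides.

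Several factors of heart development were lower in infrarenal aorta. Of 19 tested genes of the heart field and outflow tract list, 5 fell and 1 rose, with a median of -0.53. HAND1, a cardiac basic helix-loop-helix factor, was at 7.14, 7.41, 21 and 11.6 CPM in ascending aorta and 0.463, 0.361, 0.524 and 0.17 CPM in infrarenal aorta (log2 difference -4.95, SE 0.88, edgeR adjusted p = 0.00429). HAND2, its paralog in the second heart field, was at 100.1, 107, 98.9 and 85.5 CPM in ascending aorta and 23.4, 27.3, 21.1 and 24.2 CPM in infrarenal aorta (log2 difference -2.03, SE 0.28, edgeR adjusted p = 0.000626). Neither gene overlapped between the ends. GATA5, a zinc finger factor of the heart and endocardium, was at 30.2, 26.5, 61.3 and 70.6 CPM in ascending aorta and 4.32, 3.97, 8.19 and 5.88 CPM in infrarenal aorta (log2 difference -3.07, SE 0.43, edgeR adjusted p = 0.000808), and TBX20, a T-box factor of the heart, fell by 4.25 (SE 0.64, adjusted p = 0.00144).

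GATA4, a zinc finger factor of the heart and the epicardium, was at 2.51, 0.679, 1.51 and 15.5 CPM in ascending aorta and 0.0771, 0.0602, 0.0655 and 0 CPM in infrarenal aorta. Ascending replicate 4 was by far the highest, and infrarenal aorta held 3 counts in all, against 332 in ascending aorta, a ratio of 106 (95% interval of counting error only 36 to 517). The gene that rose, TBX18, a factor of the epicardium and mural cells, was at 28.8, 45.9, 48.5 and 36.8 CPM in ascending aorta and 55.3, 129, 93.2 and 105 CPM in infrarenal aorta (log2 difference 1.26, SE 0.26, edgeR adjusted p = 0.0126). It did not pass without ascending replicate 1 or infrarenal replicate 2 (highest adjusted p 0.0506). Mesothelial markers moved with ascending replicate 4, whose summed level was 1026 CPM against 114 to 162 CPM in the other ascending libraries and 24.8 to 160.3 CPM in infrarenal aorta. All 6 tested mesothelial markers had negative differences, with a median of -2.87. Only KRT8, a keratin of simple epithelia, passed, at 75.8, 79.1, 95.4 and 64.9 CPM in ascending aorta and 9.64, 2.95, 5.57 and 3.28 CPM in infrarenal aorta (log2 difference -3.89, SE 0.49, edgeR adjusted p = 0.000366). MSLN was at 0.501, 0.494, 0.787 and 40.7 CPM in ascending aorta and did not pass (edgeR adjusted p = 0.168). Without infrarenal replicate 1 and ascending replicate 4, 4 of the 6 were positive, with a median of 0.31. In that fit KRT8 was at -4.42 and MSLN at 0.19.

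The summed level of cardiac muscle genes was higher in ascending than in infrarenal libraries, but only 1 of them passed. MYL2, a myosin light chain of the ventricle, was at 99.4, 0.123, 0.605 and 0.483 CPM in ascending aorta and 0.54, 0.12, 0.328 and 0.34 CPM in infrarenal aorta. Only ascending replicate 1 was high, and MYL2 did not pass (edgeR adjusted p = 0.0516). The summed level of the cardiac muscle list was 650.3, 586.8, 320.3 and 346.7 CPM in ascending aorta and 110.1 to 306.6 CPM in infrarenal aorta. It was 216 to 541 CPM in descending and 165 to 443 CPM in suprarenal aorta, which overlapped the ascending range. TNNT2 and TNNI3 were high only in ascending replicate 1 (40.3 and 74.9 CPM), so other genes of the list made most of the sum in the other ascending libraries. The median difference over 7 tested genes was -1.89. MYH6, the atrial myosin heavy chain, was the 1 member that passed, at 5.83, 1.17, 0.726 and 0.241 CPM in ascending aorta against 0, 0, 0.0655 and 0 CPM. It held 128 counts against 1, a ratio of 123 (95% interval of counting error only 21.6 to 4880). It did not pass without infrarenal replicates 2 or 4 (highest adjusted p 0.0549). The HAND2 difference was -2.08 without infrarenal replicate 1 and ascending replicate 4. That fit kept ascending replicate 1, where MYL2 was high. The part of heart muscle or mesothelium in these differences was not tested.

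Other developmental regulators moved in both directions, 3 of 40 tested genes higher and 5 lower, with a median of 0.08. OSR1, an odd-skipped zinc finger factor of the intermediate and lateral mesoderm, was at 1225, 981, 616 and 439 CPM in ascending aorta and 247, 77.9, 93.4 and 139 CPM in infrarenal aorta. The lowest ascending library lay above the highest infrarenal one (log2 difference -2.55, SE 0.41, edgeR adjusted p = 0.00218). OSR2, its paralog, fell by 1.65 (SE 0.26, adjusted p = 0.00192). IRX2, an Iroquois homeobox factor, was at 15.3, 7.65, 12.7 and 22.2 CPM in ascending aorta and 0.694, 0.0602, 1.05 and 0.849 CPM in infrarenal aorta (log2 difference -4.44, SE 0.65, edgeR adjusted p = 0.00115). Of 16 neural crest genes, SOX9, SOX8 and TFAP2A fell and SNAI2 and EDNRA rose. SOX9, a master factor of cartilage and of the neural crest, was at 27.1, 19, 19.7 and 8.33 CPM in ascending aorta and 0.386, 0.843, 2.16 and 1.24 CPM in infrarenal aorta, without overlap (log2 difference -3.98, SE 0.70, edgeR adjusted p = 0.00389). TFAP2A, an activator of neural crest genes, fell by 3.14 (SE 0.59, adjusted p = 0.00654). SOX8 did not pass without ascending replicates 1, 3 or 4, descending replicates 1, 2 or 4, infrarenal replicates 1, 2, 3 or 4, or suprarenal replicates 2 or 4, with a highest adjusted p of 0.129. Of 16 retinoic acid genes only the receptor RARB passed, lower at 19.7, 17.1, 16.3 and 10.1 CPM in ascending aorta and 6.02, 5.3, 5.57 and 7.24 CPM in infrarenal aorta (log2 difference -1.39, SE 0.23, edgeR adjusted p = 0.00311).

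NOTCH3, the receptor named in the series title, was at 71.2, 45.1, 47.8 and 61.3 CPM in ascending aorta and 494, 429, 402 and 505 CPM in infrarenal aorta. Every infrarenal value was above 400 CPM and every ascending value below 75 CPM, so the groups lay far apart (log2 difference 3.02, SE 0.27, edgeR adjusted p = 3.07e-05). Its mean level was 142 ± 64.2 CPM (SD, n = 4) in descending and 216 ± 41.7 CPM (SD, n = 4) in suprarenal aorta, between the ends. The exact two-sided permutation test over the 8 libraries gave p = 0.0286, the smallest its 70 splits allow, or 0.0857 after adjustment over NOTCH3, ELN and FBN1. The difference was 3.02 without infrarenal replicate 1 and ascending replicate 4.

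Notch signalling passes between touching cells, and the receptor is cut on contact with a ligand of the Jagged or Delta family. Of 36 tested genes of the pathway 3 rose and 0 fell, with a median of 0.15. JAG1, a ligand, was at 92, 69.9, 97.5 and 96.9 CPM in ascending aorta and 274, 272, 339 and 298 CPM in infrarenal aorta, without overlap (log2 difference 1.73, SE 0.22, edgeR adjusted p = 0.00036). HES4, a target repressor, was at 14.6, 16.2, 17.5 and 17.1 CPM in ascending aorta and 215, 84.6, 72.5 and 58.9 CPM in infrarenal aorta. All infrarenal values were above all ascending ones, and replicate 1 was the highest (log2 difference 2.72, SE 0.50, edgeR adjusted p = 0.00532). The other receptors did not pass, with NOTCH1 at 0.98 (SE 0.58) and NOTCH2 at -0.16 (SE 0.25). HEYL, a target repressor of mural cells, was at 0.06 (SE 0.25, adjusted p = 0.969), and 0 of 21 modulators passed in edgeR (0 at an unadjusted p under 0.05, 0 with DESeq2, 0 with voom and 2 with voom and quality weights).

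**Figure D3:**
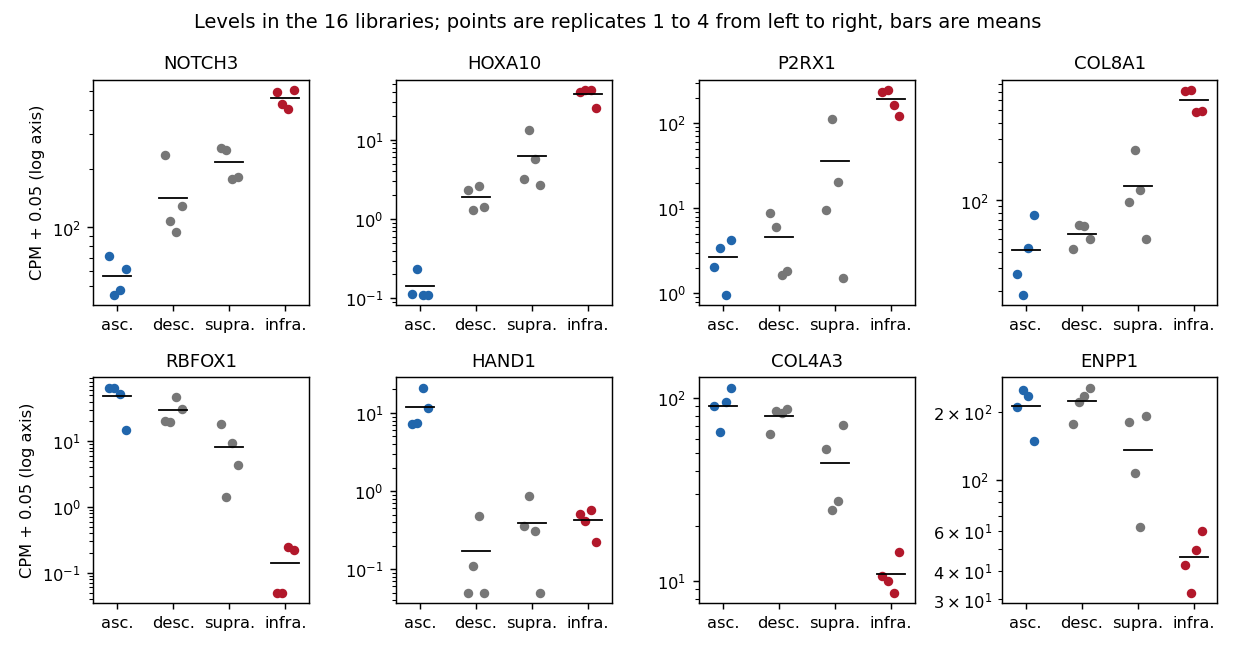
CPM plus 0.05 on a log axis for 8 genes in the ascending (asc.), descending (desc.), suprarenal (supra.) and infrarenal (infra.) libraries, with points for replicates 1 to 4 from left to right and bars for means. In the 4 genes of the upper panels infrarenal libraries lie above all ascending libraries. In the 4 genes of the lower row they lie under them. The means of RBFOX1 and COL4A3 fall from region to region along the vessel. The mean of ENPP1 is no lower in descending than in ascending aorta and falls beyond it, while HAND1 is already low in descending aorta.

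Elastic fibre genes were lower or did not pass. Of 24 tested genes, 2 fell, 0 rose and 22 did not pass, and the median was -0.21. ELN, the elastin of the fibre core, was at 225, 521, 406 and 118 CPM in ascending aorta and 33.4, 246, 221 and 135 CPM in infrarenal aorta, and the ranges overlapped (log2 difference -1.0, SE 0.54, edgeR adjusted p = 0.518, 95% interval -2.15 to 0.16). FBN1, the main microfibril protein, was at 520.3, 554, 452 and 315 CPM in ascending aorta and 265, 436, 351 and 459 CPM in infrarenal aorta, also with overlap (log2 difference -0.28, SE 0.22, edgeR adjusted p = 0.735, interval -0.76 to 0.19). The exact permutation p was 0.257 for ELN and 0.286 for FBN1. MFAP2, a microfibril protein, was at 46.2, 31, 34.8 and 63.6 CPM in ascending aorta and 23.1, 12.9, 18.2 and 20.3 CPM in infrarenal aorta (log2 difference -1.24, SE 0.29, edgeR adjusted p = 0.0261). It did not pass without ascending replicates 1 or 4 or infrarenal replicates 2, 3 or 4 (highest adjusted p 0.0964). EMILIN2, a glycoprotein of elastic tissue, was at 172, 149.8, 236 and 113 CPM in ascending aorta and 68.9, 74.8, 86.6 and 70.7 CPM in infrarenal aorta (log2 difference -1.16, SE 0.20, edgeR adjusted p = 0.00333). All 6 genes of the elastin and microfibril group had negative differences, with a median of -1.10, beside 6931 negative among all 15926 genes tested. Of 5 lysyl oxidases 0 passed in edgeR (1 at an unadjusted p under 0.05, 0 with DESeq2, 0 with voom and 0 with voom and quality weights). Without infrarenal replicate 1, 6 of the 24 fell.

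Collagens differed by type. Among 17 tested fibrillar and interstitial collagens 4 rose and 1 fell, with a median of 0.55. COL8A1, a short-chain collagen made by vascular cells, was at 27.1, 18.5, 42.7 and 76.5 CPM in ascending aorta and 707, 719.9, 488 and 498 CPM in infrarenal aorta, without overlap (log2 difference 3.87, SE 0.49, edgeR adjusted p = 0.00036). COL1A1, the main chain of type I collagen, was at 675, 583, 662 and 924 CPM in ascending aorta and 2513, 3454, 1687 and 4465 CPM in infrarenal aorta (log2 difference 2.09, SE 0.32, edgeR adjusted p = 0.00144). COL6A3, a chain of microfibrillar collagen, rose by 1.79 (SE 0.30, adjusted p = 0.00333). COL1A2 rose by 0.94 but did not pass without ascending replicates 2, 3 or 4 or infrarenal replicates 2 or 4 (highest adjusted p 0.0959). COL21A1, a fibril-associated collagen, was at 110.1, 103, 115 and 86.6 CPM in ascending aorta and 17.6, 18.1, 26.5 and 6.9 CPM in infrarenal aorta, with no overlap in the opposite direction (log2 difference -2.59, SE 0.33, edgeR adjusted p = 0.000391). In the descending and suprarenal libraries COL1A1 was at 1954 ± 486 CPM and 2182.3 ± 639 CPM (SD, n = 4), and every library of both lay above all 4 ascending ones.

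Of 23 basement membrane genes, LAMA5 rose and COL4A3 and COL4A4 fell. COL4A3, a chain of the restricted collagen IV network, was at 90.4, 64.8, 94.4 and 114 CPM in ascending aorta and 10.6, 9.93, 8.58 and 14.4 CPM in infrarenal aorta (log2 difference -3.06, SE 0.32, edgeR adjusted p = 8.54e-05). COL4A4, its partner chain, was at 80.1, 49.7, 40.7 and 61.4 CPM in ascending aorta and 10.4, 17, 7.54 and 20.2 CPM in infrarenal aorta (log2 difference -2.07, SE 0.46, edgeR adjusted p = 0.0177), and did not pass without ascending replicate 1 or infrarenal replicate 3 (highest adjusted p 0.0581). LAMA5, a laminin chain, rose by only 0.71 and failed without ascending replicates 1, 2, 3 or 4 or infrarenal replicates 3 or 4 (highest adjusted p 0.113). SULF2, which trims sulfate from heparan chains, was the 1 of 26 proteoglycan genes that passed, at 106, 211, 154 and 179 CPM in ascending aorta and 28.7, 28.6, 33.5 and 65.5 CPM in infrarenal aorta (log2 difference -2.05, SE 0.35, edgeR adjusted p = 0.0034). Of 46 matrix proteolysis genes MMP9, ADAMTSL4 and PLAT fell, or 6.52% of the list beside 2.06% of all genes. ADAMTSL4 did not pass in 6 and PLAT in 5 of the 16 fits that left out 1 library, without ascending replicates 1 or 3, infrarenal replicates 2, 3 or 4, or suprarenal replicate 1 for the first and ascending replicates 1, 2 or 4 or infrarenal replicates 2 or 3 for the second (highest adjusted p 0.0851 and 0.0955). MMP9, a gelatinase, was at 5.2, 9.94, 3.45 and 6.52 CPM in ascending aorta and 1.31, 0.602, 0.917 and 0.113 CPM in infrarenal aorta, and did not pass without ascending replicates 1 or 2 or infrarenal replicates 2, 3 or 4 (highest adjusted p 0.0988). SMOC1, a secreted calcium-binding matrix protein, was at 197, 168, 149.6 and 108 CPM in ascending aorta and 1200.1, 590.4, 325 and 555 CPM in infrarenal aorta (log2 difference 2.10, SE 0.36, edgeR adjusted p = 0.0033).

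Contractile proteins gave no call in the main fit. With the replicate number added to the fit as a block, PDLIM3 was called lower (edgeR adjusted p = 0.00614). Of 34 tested genes of the contractile smooth muscle list 0 passed in edgeR (7 at an unadjusted p under 0.05, 1 with DESeq2, 0 with voom and 3 with voom and quality weights), and the median was 0.13. MYH11, the smooth muscle myosin heavy chain, was at 12116, 14106, 10140.2 and 3985 CPM in ascending aorta and 6707, 7495, 5680.0 and 7584 CPM in infrarenal aorta (adjusted p = 0.675), with ascending replicate 4 the lowest. TAGLN was at 5858, 7002, 5733 and 4979 CPM in ascending aorta and 22865, 10074, 5745 and 6313 CPM in infrarenal aorta (adjusted p = 0.303), with infrarenal replicate 1 the highest. Both overlapped between the ends. Without those 2 libraries the list's median was -0.13, so its sign turned.

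Receptors and channels that set the tone of smooth muscle did differ. P2RX1, the ATP-gated channel through which sympathetic nerves contract vessels, was at 2.0, 3.33, 0.908 and 4.22 CPM in ascending aorta and 230.2, 246, 164 and 121 CPM in infrarenal aorta. The lowest infrarenal library was far above the highest ascending one (log2 difference 6.18, SE 1.07, edgeR adjusted p = 0.00383). Of 47 vasoactive receptor and cGMP genes 4 rose and 2 fell, with a median of 0.38. CHRM2, a muscarinic receptor, was at 21.3, 29.7, 65.4 and 15.6 CPM in ascending aorta and 0.386, 3.67, 2.62 and 2.32 CPM in infrarenal aorta (log2 difference -3.86, SE 0.65, edgeR adjusted p = 0.00329). PDE3A, a phosphodiesterase that degrades cyclic AMP, rose by 1.25 (SE 0.26, adjusted p = 0.0113). EDNRA, the endothelin receptor of smooth muscle, and GUCY1A1, a subunit of the nitric oxide receptor, rose by 1.34 and 1.46. EDNRA did not pass without ascending replicates 1, 2 or 3 or infrarenal replicates 2 or 4 (highest adjusted p 0.0723), nor GUCY1A1 without ascending replicates 1, 2 or 3 or infrarenal replicate 4 (highest 0.0553). NPR2, a natriuretic peptide receptor, fell by 0.55 and failed without ascending replicates 1, 2 or 3, descending replicates 1, 2, 3 or 4, or infrarenal replicates 2 or 3 (highest 0.111). S1PR3, a receptor for sphingosine-1-phosphate, was at 10.8, 13.5, 26 and 18.5 CPM in ascending aorta and 176, 221, 143 and 264 CPM in infrarenal aorta, without overlap (log2 difference 3.55, SE 0.48, edgeR adjusted p = 0.000596). Of 11 renin-angiotensin genes 0 passed in edgeR (2 at an unadjusted p under 0.05, 1 with DESeq2, 0 with voom and 1 with voom and quality weights). AGTR1, the angiotensin receptor of smooth muscle, was at -1.54 (SE 0.45, edgeR adjusted p = 0.0794). With the replicate number as a block 1 gene of the list was higher and 1 lower, and AGTR1 passed at -1.43 (edgeR adjusted p = 0.00128).

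Potassium channels split, 6 of 33 higher and 3 lower, with a median of -0.06 that was 0.06 without infrarenal replicate 1 and ascending replicate 4. KCNAB1, a beta subunit of voltage-gated channels, was at 1.0, 1.54, 1.15 and 1.63 CPM in ascending aorta and 50.9, 106, 54.3 and 33 CPM in infrarenal aorta (log2 difference 5.51, SE 0.70, edgeR adjusted p = 0.00036). KCNT2, a sodium-activated channel, was at 1.63, 2.41, 1.45 and 0.785 CPM in ascending aorta and 12, 51.6, 20.1 and 30.7 CPM in infrarenal aorta (log2 difference 4.18, SE 0.79, edgeR adjusted p = 0.00652). KCNA2 and KCNA5, pore subunits of voltage-gated channels, rose by 2.31 and 1.54, and KCNA5 did not pass without ascending replicate 2 or infrarenal replicate 4 (highest adjusted p 0.062). Of 33 calcium channel and store genes 2 rose and 4 fell. CACNA1H, a T-type channel, was at 16.8, 7.9, 11 and 13.7 CPM in ascending aorta and 70.6, 52.5, 92.1 and 106 CPM in infrarenal aorta (log2 difference 2.70, SE 0.49, edgeR adjusted p = 0.00519), whereas CACNB4 and CACNB3, beta subunits of high-voltage channels, fell by 2.10 and 0.81 (adjusted p = 0.00429 and 0.00848).

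Single genes of signalling between vessel cells passed. Of 41 vessel growth factor genes 4 rose and 0 fell, with a median of 0.37. ANGPT2, a ligand of the TIE2 receptor, was at 2.57, 2.04, 5.63 and 11.4 CPM in ascending aorta and 45.8, 118, 70.8 and 99.2 CPM in infrarenal aorta (log2 difference 3.94, SE 0.63, edgeR adjusted p = 0.00228). PDGFRB, the platelet-derived growth factor receptor of mural cells, was at 201, 161, 187 and 167 CPM in ascending aorta and 317, 370.1, 361 and 360.0 CPM in infrarenal aorta, a small rise in which the groups stayed apart (log2 difference 0.98, SE 0.13, edgeR adjusted p = 0.000391). FGF1 rose by 2.66 (SE 0.43, adjusted p = 0.0024). ANGPT1 rose by 1.45 and did not pass without ascending replicate 2 or infrarenal replicate 2 (highest adjusted p 0.0682). GREM1, a secreted antagonist of BMP ligands, was the 1 of 58 TGF-beta and BMP genes that rose, at 0.564, 0.494, 1.88 and 2.96 CPM in ascending aorta and 22.8, 72, 41 and 21.5 CPM in infrarenal aorta (log2 difference 4.73, SE 0.86, edgeR adjusted p = 0.00513). That is 1.72% of the list, near the 1.43% of all genes that were higher. BMP3, BMPR1B and BAMBI fell by 3.06, 2.78 and 1.54. BMP3 did not pass without infrarenal replicate 2, BMPR1B without infrarenal replicate 4, and BAMBI without ascending replicate 1 or infrarenal replicates 2 or 3 (highest adjusted p 0.0503, 0.0508 and 0.0702).

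In the WNT list 3 of 50 rose (6%) and 2 fell (4%), beside 1.43% and 2.06% of all genes. The paired R-spondins, which amplify WNT signals, moved apart. RSPO2 was at 8.83, 9.94, 34.4 and 2.9 CPM in ascending aorta and 0, 0.903, 0.328 and 0.34 CPM in infrarenal aorta (log2 difference -5.09, SE 0.85, edgeR adjusted p = 0.00298), and RSPO3 was at 1.32, 1.3, 1.94 and 1.81 CPM in ascending aorta and 2.55, 8.19, 15.5 and 6.51 CPM in infrarenal aorta (log2 difference 2.36, SE 0.59, edgeR adjusted p = 0.036). RSPO3 did not pass without ascending replicates 1, 2, 3 or 4 or infrarenal replicates 2, 3 or 4 (highest adjusted p 0.123). Of 47 axon guidance genes 1 rose (2.13%, near the share of all genes) and 4 fell (8.51%). SLIT3, a secreted guidance ligand, was at 106, 73.4, 94.7 and 102 CPM in ascending aorta and 252, 273, 249.6 and 456 CPM in infrarenal aorta (log2 difference 1.71, SE 0.23, edgeR adjusted p = 0.00054), and NTN4, a netrin, was at 257, 307, 276 and 275 CPM in ascending aorta and 79.1, 128, 153 and 130.1 CPM in infrarenal aorta (log2 difference -1.19, SE 0.20, edgeR adjusted p = 0.00291). Neither overlapped between the ends.

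Adhesion and splicing genes held some of the largest changes. CTNNA3, an alpha catenin of heart muscle junctions, was at 0.752, 1.3, 0.545 and 1.57 CPM in ascending aorta and 34.6, 29.6, 49.9 and 39.2 CPM in infrarenal aorta (log2 difference 5.19, SE 0.65, edgeR adjusted p = 0.00036). CTNND2, a delta catenin of nerve, was at 11, 18.3, 7.26 and 0.422 CPM in ascending aorta and 0.0771, 0.181, 0.197 and 0 CPM in infrarenal aorta, opposite in direction (log2 difference -6.27, SE 1.16, edgeR adjusted p = 0.00589). RBFOX1, a splicing regulator of muscle and nerve, was at 65.2, 63.9, 51.6 and 15 CPM in ascending aorta and 0, 0, 0.197 and 0.17 CPM in infrarenal aorta, the largest fall among the genes that met the naming rule (log2 difference -8.89, SE 0.98, edgeR adjusted p = 0.000149). RBM24, a splicing regulator of heart and skeletal muscle, fell by 2.06 (SE 0.38, adjusted p = 0.00522). The other 17 tested splicing genes did not pass.

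Further genes with large changes belonged to none of the pathway lists above. GeneID 102137838, which has no name in the reference, had 1 of the 5 smallest p-values (log2 difference 5.14, SE 0.38, edgeR adjusted p = 6.23e-06). NKAIN2, a membrane protein that interacts with the sodium pump, was at 0, 0.123, 0.121 and 0.302 CPM in ascending aorta and 36.7, 46.9, 33.9 and 36.4 CPM in infrarenal aorta (log2 difference 8.05, SE 1.00, edgeR adjusted p = 0.000336). SLC22A2, an organic cation transporter, was at 23.7, 91.9, 16.2 and 1.33 CPM in ascending aorta and 0.231, 0.0602, 0.131 and 0.792 CPM in infrarenal aorta (log2 difference -6.70, SE 1.40, edgeR adjusted p = 0.0128). Ascending replicate 4 was low and SLC22A2 did not pass without infrarenal replicate 2 (highest adjusted p 0.0516). PROM1, a glycoprotein of membrane protrusions, was at 41.4, 93.9, 70.04 and 22.3 CPM in ascending aorta and 1.77, 1.5, 9.63 and 0.905 CPM in infrarenal aorta (log2 difference -4.04, SE 0.80, edgeR adjusted p = 0.00903). CRMP1, a cytoskeletal adaptor of growth cones, fell by 4.37 and SUSD4, a complement regulator, by 4.20 (adjusted p = 0.000959 and 0.000942). NPTX2, a pentraxin of synapses, was at 198, 92.6, 74.5 and 66.3 CPM in ascending aorta and 15.8, 1.32, 0.393 and 8.26 CPM in infrarenal aorta (log2 difference -4.08, SE 0.91, edgeR adjusted p = 0.0182), and did not pass without ascending replicate 1 or infrarenal replicates 2 or 4 (highest adjusted p 0.0604). HSPB7, a small heat shock protein of heart and muscle, was at 284, 422, 438 and 433 CPM in ascending aorta and 82.2, 65.7, 77.8 and 71.4 CPM in infrarenal aorta (log2 difference -2.41, SE 0.28, edgeR adjusted p = 0.000214). PTGS1, the constitutive cyclooxygenase, was at 223, 231, 107 and 207 CPM in ascending aorta and 32.2, 35.2, 79.3 and 36.7 CPM in infrarenal aorta (log2 difference -2.06, SE 0.34, edgeR adjusted p = 0.00285).

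Genes of vascular calcification were split, with 8 positive and 8 negative differences among 16 tested and a median of 0.12. ENPP1, which makes the mineralization inhibitor pyrophosphate, was at 209.5, 249.8, 234 and 149 CPM in ascending aorta and 42.7, 32.1, 49.2 and 59.8 CPM in infrarenal aorta (log2 difference -2.20, SE 0.31, edgeR adjusted p = 0.000808). NT5E, which makes adenosine, was at 165, 152, 233 and 184 CPM in ascending aorta and 57.8, 90.2, 85.9 and 65.7 CPM in infrarenal aorta (log2 difference -1.29, SE 0.18, edgeR adjusted p = 0.0006). GAS6, a vitamin K dependent ligand, rose by 0.87 but did not pass without ascending replicates 1, 2, 3 or 4, descending replicates 1, 2, 3 or 4, infrarenal replicates 1, 2 or 4, or suprarenal replicates 1, 2 or 3 (highest adjusted p 0.153). These were the 3 of 16 calcification genes that passed. Among 20 inflammatory genes IL18 fell by 1.90 (adjusted p = 0.00661), while CCL2 fell by 2.41 and IL33 rose by 0.89. CCL2 did not pass without ascending replicates 1, 2 or 4, descending replicates 1 or 4, infrarenal replicates 1, 2 or 3, or suprarenal replicate 2 and IL33 without ascending replicates 1, 2 or 4, descending replicate 2, or infrarenal replicates 2, 3 or 4 (highest adjusted p 0.13 and 0.122). Of 18 genes at aneurysm risk loci 1 passed, MMP9, and of 32 genes of heritable thoracic aortic disease 2, COL1A1 and COL1A2. Of 44 oxidative phosphorylation genes 0 passed in edgeR (1 at an unadjusted p under 0.05, 0 with DESeq2, 0 with voom and 1 with voom and quality weights), and their median turned from 0.25 to -0.14 without infrarenal replicate 1 and ascending replicate 4. Beside 3.49% of all genes called in either direction, the share was 71.4% among HOX genes. It was only 3.85% among proteoglycan genes, 5.56% at aneurysm risk loci, 6.25% among heritable disease genes and 6.90% among TGF-beta and BMP genes. It was 8.33% in both the Notch and the elastic fibre list, and those 6 lists held 1 to 4 called genes each. Heart field genes had 31.6%, neural crest genes 31.2%, other developmental factors 20% and retinoic acid genes 6.25%. Interstitial collagens had 29.4%, basement membrane genes 13%, potassium channels 27.3%, calcium channels 18.2% and vasoactive genes 12.8%. Vessel growth factors had 9.76%, WNT genes 10%, axon guidance genes 10.6%, cadherins and catenins 12.5% and splicing genes 10.5%. Calcification genes had 18.8% and inflammatory genes 15%.

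**Figure D4:**
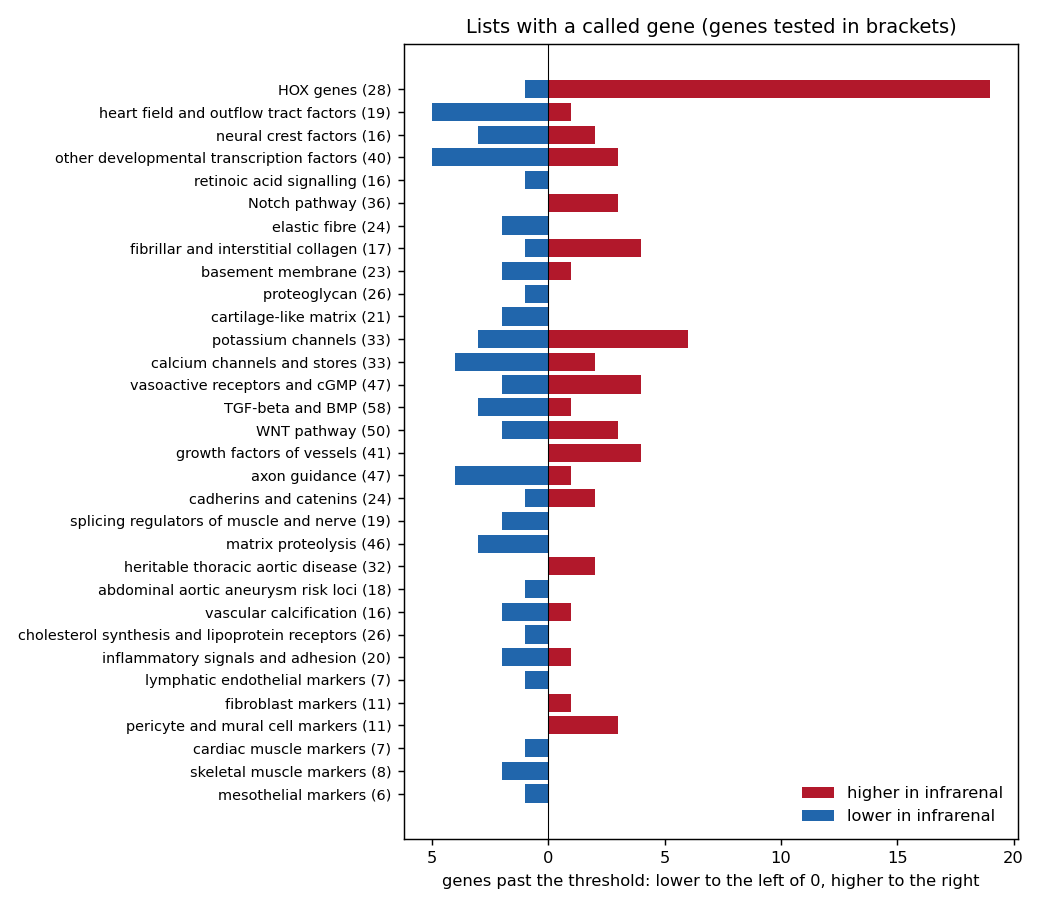
Number of genes per list past the adjusted p of 0.05, higher in infrarenal aorta to the right (red) and lower to the left (blue), with the number tested in brackets; lists with no such gene are left out. HOX genes hold the longest bar, 19 of 28 higher, and 5 of 19 heart field genes were lower.

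Markers of other cell types were read beside these results, and in bulk tissue fewer cells of a type and less RNA per cell cannot be told apart. All 11 tested pericyte and mural cell markers had positive differences, beside 56.5% of all genes tested. Their median was 0.94, and NOTCH3, PDGFRB and MCAM passed. MCAM, an adhesion molecule of mural and endothelial cells, was at 596, 752, 805 and 622 CPM in ascending aorta and 2022, 2028, 1565 and 1866 CPM in infrarenal aorta (log2 difference 1.43, SE 0.25, edgeR adjusted p = 0.0036). The summed level of that list was 2271 to 3800 CPM in ascending and 5567 to 7421 CPM in infrarenal aorta, so it did not overlap. It was 5896 to 7133 CPM in descending and 2238 to 8695 CPM in suprarenal aorta, so the sum was not particular to the infrarenal end. The median was 0.72 with 10 of 11 positive once infrarenal replicate 1 and ascending replicate 4 were left out. Of 20 endothelial markers 0 passed in edgeR (1 at an unadjusted p under 0.05, 1 with the replicate block, 1 with DESeq2, 1 with voom and 8 with voom and quality weights). Of these markers 18 were positive, with a median of 0.66. Their sum was 2986 CPM in ascending replicate 4, 670.4 to 1002 CPM in the other ascending libraries and 1268 to 3919 CPM in infrarenal aorta. Without infrarenal replicate 1 and ascending replicate 4 the median was 1.82 and 3 passed. All 13 white adipocyte markers were positive with a median of 2.70, but 0 passed in edgeR (8 at an unadjusted p under 0.05, 2 with DESeq2, 0 with voom and 2 with voom and quality weights). Their sum was 336, 488, 4967 and 1063 CPM in infrarenal aorta and 258.1 to 852 CPM in ascending aorta, so the sums overlapped. In descending aorta the sum was 499.7 to 5542 CPM and in suprarenal aorta 266.8 to 4002 CPM, so it was not particular to the infrarenal end. Of 11 fibroblast markers 9 had positive and 2 negative differences, with a median of 0.37. Only THY1 passed, at 57.1, 30.5, 36 and 80.1 CPM in ascending aorta and 268, 174, 123 and 178 CPM in infrarenal aorta (log2 difference 1.87, SE 0.42, edgeR adjusted p = 0.0185), and did not pass without ascending replicates 1, 2 or 3 (highest adjusted p 0.0735). MFAP5 went the other way, at -2.08 (SE 0.62, edgeR adjusted p = 0.0895). With the replicate block MFAP5 was called lower, at -1.87 (edgeR adjusted p = 0.00087). Of 7 lymphatic markers 3 had positive and 4 negative differences, with a median of -0.07. Their sum was 50.5 to 135.9 CPM in ascending and 27.6 to 109.1 CPM in infrarenal aorta, so the sums overlapped. Only PDPN passed, at 7.83, 10.2, 9.5 and 6.88 CPM in ascending aorta and 0.309, 0.361, 2.1 and 0.792 CPM in infrarenal aorta (log2 difference -3.26, SE 0.55, edgeR adjusted p = 0.00333). Beside 3.49% of all genes, 27.3% of pericyte and mural cell markers and 9.09% of fibroblast markers were called in either direction. The share was 14.3% among lymphatic and among cardiac muscle markers and 16.7% among mesothelial markers. Each of these lists but the pericyte list held 1 called gene. What these cells contributed to the differences above was not tested.

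The suprarenal and descending libraries entered the test of the ends through the low-count filter, the scaling and the estimate of spread, and their own difference did not choose the genes. Of the 228 genes higher in infrarenal aorta, 189 (82.9%) were also higher in suprarenal than in descending aorta, against 51.7% of all genes. Of the 328 lower genes 281 (85.7%) were lower there, against 48.3%. The differences were small, with medians of 0.34 and -0.31. No gene passed between those middle regions (0 in edgeR, 264 at an unadjusted p under 0.05). With the ends and the middle fitted apart, the shares were 86.2% (94 of 109) and 86.5% (141 of 163). Genes are not independent replicates, so no test and no interval is given. Without infrarenal replicate 1 and ascending replicate 4 in the choice of genes, the shares were 72% and 78.2%.

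The called genes mostly changed in order along the vessel. In 155 of 228 higher genes (68%) and 213 of 328 lower genes (64.9%) the region means ran in one direction from ascending through descending and suprarenal to infrarenal aorta, as in 13.5% of all genes. The end levels enter that order, so the share describes where the middle regions lie. The midpoint between the end levels was crossed between suprarenal and infrarenal aorta in 201 of the 328 lower genes and in 91 of the 228 higher ones. It was crossed between ascending and descending aorta in 47 and 77. HAND1 and PIANP were among those already low in descending aorta (0.121 ± 0.204 and 1.71 ± 1.28 CPM, SD, n = 4), whereas CTNNA3 was still low in suprarenal aorta (5.52 ± 5.36 CPM, SD, n = 4). P2RX1 was at 9.46, 110.9, 20.3 and 1.48 CPM there, and replicate 2 lay close to the lowest infrarenal library (121 CPM).

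**Figure D5:**
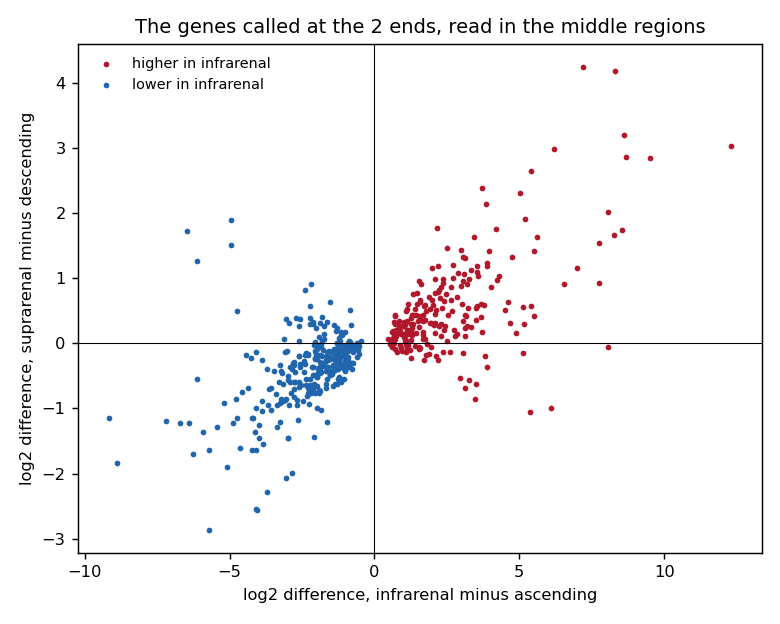
Log2 difference between suprarenal and descending aorta against that between infrarenal and ascending aorta for the 556 called genes. Most red points lie above 0 (189 of 228) and most blue points below 0 (281 of 328), while the vertical spread is narrower than the horizontal one.

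Some called genes were neighbours in the RefSeq gene order of assembly MFA8v1.1, used only for order. Of 14661 genes placed there 524 were called, and 79 of these lay in 33 runs of adjacent genes called in the same direction. No number of runs expected by chance is given, so these counts are a description only. Of the runs, 7 held at least 3 genes. The 3 longest lay in the HOXD, HOXC and HOXA clusters, with 6, 5 and 4 genes, and the HOXD run included an unnamed gene. The others were CHRM2 with PTN and DGKI, HAND2 with a pair of unnamed genes, IRX2 and IRX1 around an unnamed gene, and KCNE2 with MRPS6 and SLC5A3. COL4A3 and COL4A4, which share a promoter region, and HOXB7 and HOXB8 made runs of 2.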

How the data were processed

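The authors deposited raw counts per gene, made with fastp, HISAT2 2.0.5 and featureCounts 1.5.0-p3 per the submitters' processing notes; for the genome build, annotation and strand setting, no statement is given in these sources. Of 32846 rows 24609 (74.9%, 97.2% of the counts) matched RefSeq names, and 0 columns belonged to no sample. Genes were kept with filterByExpr (minimum count 10, minimum total 15), leaving 15926 genes and 99.9% of the counts. All 16 libraries were fitted with edgeR 4.0.16 in R 4.3.3 (TMM factors, a mean per region, quasi-likelihood F test, threshold 0.05); the common dispersion was 0.146. No library repeated another: within a region, chi-square over its degrees of freedom was at least 29.5. The script was tested on simulated data, where 3 of 102 calls were false. Alternatives used DESeq2 1.42.0, limma 3.58.1, other scalings, filters and left-out libraries.

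The comparison, the 32 gene lists, the 18 cell type lists and the rule for naming genes were chosen with earlier results of these data known. The rule took NOTCH3, ELN and FBN1, the 12 largest changes in each direction among named called genes whose groups did not overlap and whose mean log2 CPM was 1 or more, the 5 smallest p, the 5 largest changes in each direction at 100 CPM or more, and up to 4 called members per list. Other members, such as GATA4, TBX18, MYH11, NPR2 and KCNA2, were named after their values were seen. Some genes that the rule took are not reported here. Where a group held 1 to 3 counts, ratios of summed counts with exact 95% intervals are given; intervals and floors cover counting error only.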

Additional observations from a re-analysis of the deposited data

Results flagged for a closer look

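In groups of 4 libraries, 1 library stood apart from the other 3 by Dixon's test in 32 of the 288 groups formed by the named genes and the 2 ends of the aorta; about 1 in 20 would by chance, and the genes are not independent. The values are CPM, with the range of the other 3 libraries of the group. Ascending replicate 1 stood apart in HSPB7 at 284 (others 422 to 438), DUSP1 at 2768 (others 851 to 1174), MYH6 at 5.83 (others 0.241 to 1.17) and MYL2 at 99.4 (others 0.123 to 0.605). Ascending replicate 2 stood apart in HOXA10 at 0.185 (others 0.0604 to 0.0627; 3 reads against 1 in each) and PDLIM3 at 691 (others 379 to 407). Ascending replicate 3 stood apart in NDUFA2 at 26.8 (others 38.8 to 40.1). Ascending replicate 4 stood apart in 7 genes, including HOXA9 at 0.362 (others 0.0605 to 0.0627; 6 reads against 1 in each), C3 at 369 (others 15.8 to 19.6), ADIPOQ at 10.6 (others 1.23 to 2.69) and KCNK3 at 47.2 (others 86.0 to 93.1). It also did so in TYROBP at 11 (others 4.84 to 5.39), SYT1 at 6.34 (others 0.908 to 1.30) and MSLN at 40.7 (others 0.494 to 0.787). Infrarenal replicate 1 stood apart in 10 genes, including HOXA7 at 92.0 (others 26.7 to 31.3), GeneID 102137838 at 21.7 (others 45.3 to 50.1), IVNS1ABP at 51.4 (others 71.9 to 75.8) and DHRS3 at 313 (others 129 to 149.5). It also did so in HES4 at 215 (others 58.9 to 84.6), GAS6 at 2062 (others 1012 to 1098), NDUFA2 at 113 (others 37.8 to 42.1) and DUSP1 at 1048 (others 326 to 353). It also did so in C1QB at 38.4 (others 13.7 to 16.7) and TYROBP at 7.71 (others 4.02 to 4.45). Infrarenal replicate 3 stood apart in 5 genes, including CRMP1 at 3.80 (others 0.617 to 0.849), PROM1 at 9.63 (others 0.905 to 1.77), PTGS1 at 79.3 (others 32.2 to 36.7) and ADIPOQ at 404 (others 1.39 to 55.8). It also did so in MYH6 at 0.0655 (others 0 in each), which is 1 read, so that the gap is the whole range by construction. Infrarenal replicate 4 stood apart in HOXA10 at 24.8 (others 40.0 to 42.5), SULF2 at 65.5 (others 28.6 to 33.5) and SLIT3 at 456 (others 249.6 to 273).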

How the results depend on the processing

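The 556 called genes (228 higher, 328 lower) became 1004 with DESeq2 (448 and 556), 1740 with limma voom and sample quality weights (876 and 864), 291 with only the 8 libraries compared (119 and 172), 275 with those 8 and a replicate block (122 and 153), and 140 with an added minimum log2 change of 1 (63 and 77). Without infrarenal replicate 1 and ascending replicate 4 they were 1188 (572 and 616), and with the replicate block as well, chosen after seeing the data, 1817 (866 and 951). Leaving out 1 library gave 345 to 1001 calls, 140 to 441 higher and 192 to 560 lower. Scaling by library totals alone gave 184 higher and 400 lower, and moved the median of all genes from 0.05 to -0.05. The cause of these shifts was not tested. With the replicate number as a block there were 843 calls (334 and 509), 549 of them shared with the 556. Same-numbered infrarenal and ascending libraries correlated at 0.0726 to 0.447 in deviations from their group means, and those of different number at -0.306 to 0.139. Over all pairs of regions the ranges were -0.173 to 0.575 and -0.499 to 0.606. The labels do not say what the number means, so it is taken only as a number. Of 8 end libraries 7 correlated best with their own number at the other end, a hint from the data and not the design. Of 102 called named genes, 0 changed direction in the other settings that tested them (29, but 26 for MYH6 and 27 for CTNND2). Leaving aside the minimum change, 59 passed in each of those and 43 failed in at least 1. Both reversed genes had not passed. SYT1 turned to 1.11 without infrarenal replicate 1 and ascending replicate 4, 0.71 with the block added, 0.27 with quality weights, 0.78 without ascending replicate 4 and 0.02 without infrarenal replicate 1 (-1.62 to 0.78 over all libraries left out in turn), and MSLN turned to 0.19 and 0.44 in the first pair of settings. The shares of genes with the same sign in the middle regions were 72% and 78.2% without those 2 libraries, chosen after seeing the data. At these totals and this spread, 2-fold changes were mostly missed in simulation (24 of 100 found).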

Other observations

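Further groups of genes were read after their values had been seen, so their counts and shares are descriptions only. Beside 3.49% of all genes called, the share was 21.1% among Hedgehog, 37.8% among synaptic and 20% among glutamate genes. It was 41.7% among glycogen and glucose genes and 14.3% among prostanoid genes. Of 19 tested Hedgehog genes 4 rose in infrarenal aorta and 0 fell, with a median of 0.10 beside 0.05 over all genes. GLI3, a transcription factor of the pathway, was at 6.64, 5.99, 7.45 and 7.06 CPM in ascending aorta and 13.1, 15.5, 14.4 and 16.9 CPM in infrarenal aorta (log2 difference 1.14, SE 0.23, edgeR adjusted p = 0.0113). DISP1, which releases the ligand, rose by 1.13, GLI2 by 1.02 and the inhibitor SUFU by 0.80. DISP1 did not pass without infrarenal replicate 2, GLI2 without ascending replicates 1, 2, 3 or 4, descending replicates 1, 2 or 3, infrarenal replicates 2, 3 or 4, or suprarenal replicate 4, and SUFU without ascending replicates 2, 3 or 4 or infrarenal replicates 2 or 3 (highest adjusted p 0.0557, 0.165 and 0.0909).

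Of 37 tested genes of synaptic adhesion and release 11 fell and 3 rose. NLGN4X, a neuroligin, was at 8.65, 14.2, 12 and 10.6 CPM in ascending aorta and 2.85, 2.95, 2.82 and 3.9 CPM in infrarenal aorta, without overlap (log2 difference -1.86, SE 0.21, edgeR adjusted p = 0.000201). Of 15 glutamate receptor and transport genes 3 fell, and SLC17A7, a vesicular glutamate transporter, was at 75.5, 68.8, 68.4 and 67.1 CPM in ascending aorta and 11.5, 7.34, 15.3 and 7.87 CPM in infrarenal aorta (log2 difference -2.74, SE 0.26, edgeR adjusted p = 3.64e-05). GRIA3, a glutamate receptor subunit, was at 40.5, 47.1, 20.5 and 26 CPM in ascending aorta and 6.25, 6.02, 6.55 and 8.37 CPM in infrarenal aorta (log2 difference -2.30, SE 0.28, edgeR adjusted p = 0.000281). Schwann cell and nerve markers had 0 of 15 called in edgeR (5 at an unadjusted p under 0.05, 1 with the replicate block, 2 with DESeq2, 0 with voom and 1 with voom and quality weights). Their median was -0.79 with 3 positive, and turned to 0.08 with 9 positive without infrarenal replicate 1 and ascending replicate 4. Their sums were 648.3 to 919 CPM in ascending and 570.9 to 693 CPM in infrarenal aorta. Their part in these differences was not tested.

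Of 24 glycogen and glucose genes 8 fell and 2 rose, with a median of -0.15. FBP2, the muscle fructose bisphosphatase, was at 21.1, 10.9, 6.3 and 3.86 CPM in ascending aorta and 0.231, 0.0602, 0.131 and 0.34 CPM in infrarenal aorta (log2 difference -5.73, SE 1.01, edgeR adjusted p = 0.00395). Among 21 prostanoid genes PTGS1 fell, and HPGD, which breaks prostaglandins down, was at 0.188, 0, 0.121 and 0.121 CPM in ascending aorta and 0.463, 7.64, 4.39 and 3.9 CPM in infrarenal aorta (log2 difference 5.16, SE 0.90, edgeR adjusted p = 0.00383). The unnamed genes with the largest called differences were GeneIDs 102133019 and 102133380, with 0 counts over the ascending libraries and 2349 and 339 over the infrarenal ones, and GeneIDs 102118628 and 102133174, with 4201 and 79 counts over the ascending libraries and 108 and 2 over the infrarenal ones. The second of these had a ratio of 37.8 (95% interval of counting error only 10.1 to 318).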
